A study of Homo sapiens with 6 samples.

Results

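The genes described here are 10 that handle cellular iron: the ferritin subunits FTH1 and FTL, the transferrin receptor TFRC, the iron exporter SLC40A1, the haem oxygenase HMOX1, the divalent metal transporters SLC11A1 and SLC11A2, the iron regulatory proteins encoded by ACO1 and IREB2, and the ferritin receptor NCOA4. They were chosen by name, as the rows of a table of 60612 Ensembl identifiers whose identifier maps to these symbols, and all 10 were found. RNA sequencing was done on 6 libraries of wild-type U937 cells, a human myeloid line that was established from a histiocytic lymphoma and that the labels call acute myeloid leukemia. 3 libraries came from cells given 1 µM of a compound known only as B2 for 36 h and 3 from cells given its DMSO vehicle for 36 h, all in RPMI-1640 medium without serum. The series title names S100A9 as the target in acute myeloid leukemia, and the comparison sets B2 against its vehicle. The labels number the libraries 1 to 3 in each group. They do not say what a number marks or that cultures were separate. The p-values therefore measure only how these libraries scatter, which may be technical.

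Cells hold most of their stored iron inside ferritin, a hollow shell of heavy (FTH1) and light (FTL) chains, and take up transferrin-bound iron through TFRC. The proteins made by ACO1 and IREB2 sense iron. When iron is scarce they bind a short RNA hairpin, the iron-responsive element, which blocks translation when it lies in a 5′ untranslated region and protects the transcript from decay when it lies in a 3′ untranslated region. Macrophages recycle iron from aged red cells: HMOX1 frees iron from haem, SLC40A1 (ferroportin) exports it, and ferritin stores the rest.

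Letter matches to iron-responsive elements are shown because the ACO1 and IREB2 proteins are known to bind such elements. The untranslated regions of GENCODE 29 transcripts were searched on the sense strand for the loop letters CAGTGN with a C placed 5 bases before the loop and 5 base pairs (G-T pairs allowed) between the bases on either side. Each line gives 29 bases, with the 6 loop letters in capitals. The SLC11A2 line has only 4 of the 5 pairs, and the matches of that form in ACO1 and IREB2 are not printed. Positions are those of GENCODE 29 on GRCh38, since the authors' build is not given in the sources used here.
FTH1, 5′ untranslated region, chr11:61967574-61967602, minus strand: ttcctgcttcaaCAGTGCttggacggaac
FTL, 5′ untranslated region, chr19:48965335-48965363, plus strand: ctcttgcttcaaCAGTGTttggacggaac
SLC40A1, 5′ untranslated region, chr2:189580661-189580689, minus strand: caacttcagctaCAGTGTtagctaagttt
TFRC, 3′ untranslated region, chr3:196050979-196051007, minus strand: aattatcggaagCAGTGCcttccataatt
TFRC, 3′ untranslated region, chr3:196050575-196050603, minus strand: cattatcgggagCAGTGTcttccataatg
TFRC, 3′ untranslated region, chr3:196050510-196050538, minus strand: ctgtatcggagaCAGTGAtctccatatgt
TFRC, 3′ untranslated region, chr3:196050463-196050491, minus strand: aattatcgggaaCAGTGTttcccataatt
SLC11A2, 3′ untranslated region, chr12:50988269-50988297, minus strand: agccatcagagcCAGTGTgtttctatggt

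The ferritin genes and SLC40A1 each held 1 match in the 5′ region, and TFRC held 4 in the 3′ region. Among all genes, 31 of 19014 (0.163%) had a match in a 5′ untranslated region and 128 of 19128 (0.669%) in a 3′ region. Among genes whose region was of like length (0.8 to 1.25 times), the share was 0.0788% for FTH1, 0.0589% for FTL, 0.248% for SLC40A1 and 0.756% for TFRC. The SLC11A2 hairpin has 4 of the 5 pairs, a looser form, and ACO1 and IREB2 each had 1 match of that form in a 3′ region. A match with at least 4 of 5 pairs was held in a 3′ region by 4.64% of genes of any length, full matches included. HMOX1, SLC11A1 and NCOA4 had no match of either form. A match is a run of letters and not a shown binding site.

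The libraries numbered 3 stood apart from the other 4 in both groups, though not in every gene below. Totals ran from 61150740 to 78431054 counts, and SLC11A1, the least abundant of the 10 genes per kilobase, had 46 to 85 counts per library. Monocyte and macrophage markers differed between them. Of 12 such markers 8 passed the filter on low counts and could be tested. All 8 had an edgeR adjusted p below 0.05 across replicate numbers and were higher in number 3, where 2.2% of all genes were. The rest were dropped by the filter, though only 2 of the 12 had at most 5 counts in every library. The summed level of all 12 was 33.2, 25.4 and 1087 CPM in B2 replicates 1 to 3, against 48.7, 22.3 and 1145 CPM in DMSO replicates 1 to 3 (CPM, counts scaled to library size with TMM factors). MRC1, a mannose receptor of macrophages, was at 0 counts in all 6 libraries. Markers of the myeloid line, PTPRC and CD33 among them, summed to 2105, 1966 and 2740 CPM in B2 replicates 1 to 3. In DMSO replicates 1 to 3 they summed to 3355, 1805 and 2835 CPM. All 8 were measured, and 4 of the 8 had both number 3 libraries above the other 4, where 12.3% of all genes had that. ITGAX was the 1 called across replicate numbers (log2 fold change for number 3 of 1.52, SE 0.24, edgeR adjusted p = 0.0109).

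The 10 genes spanned a wide range of levels. Per kilobase of exon, FTL stood at 15300.1 ± 8330 CPM, FTH1 at 721 ± 815, NCOA4 at 46.0 ± 13.8, TFRC at 17.8 ± 13.8, ACO1 at 9.58 ± 2.34, HMOX1 at 5.04 ± 1.43, SLC11A2 at 4.53 ± 0.899, IREB2 at 2.70 ± 1.06, SLC40A1 at 0.320 ± 0.144 and SLC11A1 at 0.104 ± 0.034 (mean ± SD over all 6 libraries). FTL did not overlap FTH1, FTH1 did not overlap NCOA4, and IREB2 did not overlap SLC40A1 in any library. Every other pair of neighbours in this order overlapped. The order depends on the exon lengths, which merge all annotated transcripts of a gene and may exceed the length of the transcript expressed. Merged exons span 2405 bases in HMOX1 and 10145 in SLC11A2. Before scaling to length SLC11A2 was the higher, at a mean of 45.7 CPM with B2 and 46.3 with DMSO. HMOX1 had 11.6 and 12.7 CPM. FTL was among the 7 genes of highest count in every library and held the highest count of all genes in both libraries numbered 3.

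**Figure D1:**
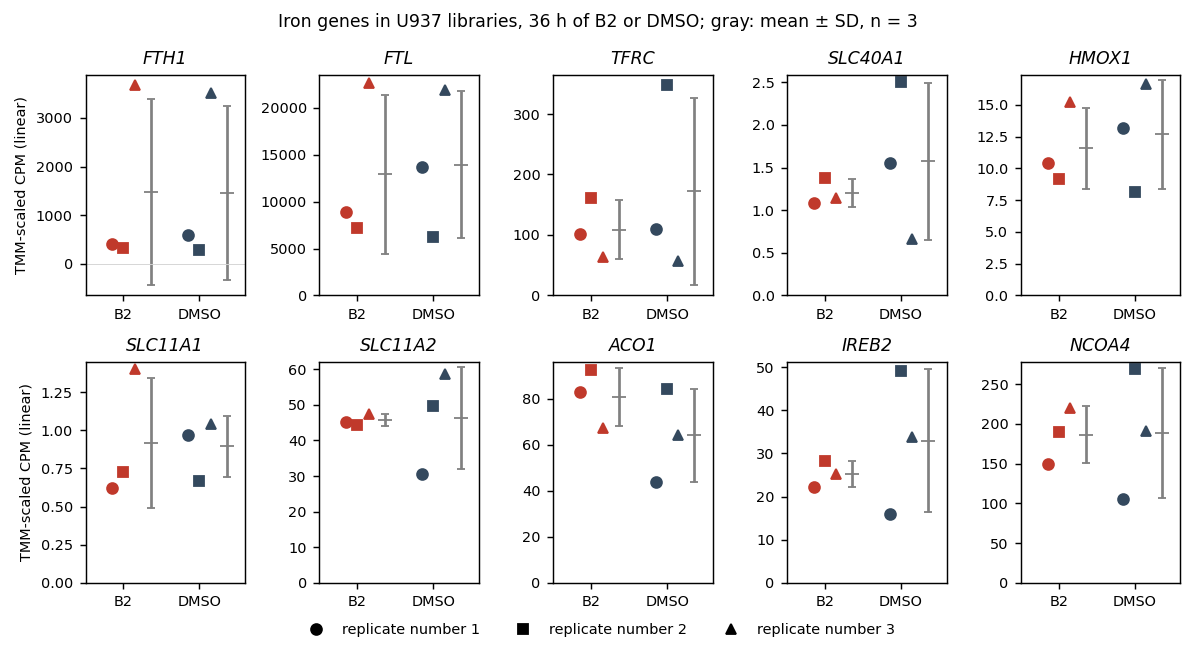
TMM-scaled CPM (linear axis) of the 10 iron genes in each library, with B2 left of DMSO, marker shape for the replicate number and a gray bar for mean ± SD (n = 3 per group). FTH1 and FTL are highest in both libraries numbered 3, TFRC is lowest there and highest in DMSO replicate 2, and B2 and DMSO overlap for all 10 genes.

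B2 and DMSO libraries did not differ detectably in any of the 10 genes. In edgeR's quasi-likelihood test with Benjamini-Hochberg adjustment over 17224 genes, 0 of 10 had an adjusted p below 0.05, where 0 of 17224 genes (0%) did, and each of the 10 had an adjusted p of 1.0. With the replicate number as a block the count was 0 of 10 and 0% as well. At an unadjusted p below 0.05 there were 0 of 10, against 85 genes (0.493%) in the whole table. Limma-voom called 0 genes in all and DESeq2 called 3, none of them an iron gene. B2 and DMSO values overlapped in all 10 genes, where 3.56% of all genes did not overlap. The median log2 fold change, B2 over DMSO, was -0.06 over the 10 genes and -0.08 over all genes tested. 3 estimates were positive and 7 negative. Those of NCOA4 (-0.012) and SLC11A2 (-0.019) turned positive with upper-quartile factors or library totals.

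FTH1 (chr11:61959718-61967660, minus strand), the ferroxidase chain of ferritin, stood at 418, 317 and 3684 CPM in B2 replicates 1 to 3, against 583, 275 and 3503 CPM in DMSO replicates 1 to 3. Its level was high in replicate 3 of each group and at most 583 CPM in the other 4 libraries. Its log2 fold change, B2 over DMSO, was 0.019 (SE 1.12, 95% interval -2.55 to 2.58). The estimate depended on a single library, at -1.99 without B2 replicate 3 and 1.78 without DMSO replicate 3. With the replicate block it was -0.068 (interval -0.60 to 0.47), and without both libraries numbered 3 it was -0.23.

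FTL (chr19:48965301-48966878, plus strand), the light chain that aids mineral formation in the shell, stood at 8916, 7216 and 22646 CPM in B2 replicates 1 to 3, against 13679.6, 6241 and 21903 CPM in DMSO replicates 1 to 3. The libraries numbered 3 were again the highest of each group, and the groups overlapped. The log2 fold change was -0.11 (SE 0.56, interval -1.40 to 1.18), and it was -0.79 without B2 replicate 3, 0.38 without DMSO replicate 3 and -0.31 without both.

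NCOA4 (chr10:46005088-46030714, minus strand), which carries ferritin to lysosomes so that its iron can be used, stood at 149.6, 189.9 and 221 CPM in B2 replicates 1 to 3, against 105, 269 and 191 CPM in DMSO replicates 1 to 3. DMSO replicates 1 and 2 were the lowest and highest of the 6, with all B2 libraries between them. The log2 fold change was -0.012 (SE 0.37, interval -0.85 to 0.82), and it was 0.32 without DMSO replicate 2 and -0.28 without DMSO replicate 1.

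TFRC (chr3:196027183-196082189, minus strand), the receptor that takes up iron-loaded transferrin, stood at 101, 161 and 63.3 CPM in B2 replicates 1 to 3, against 109, 349 and 56.8 CPM in DMSO replicates 1 to 3. DMSO replicate 2 was the highest library and the libraries numbered 3 were the lowest. The log2 fold change was -0.66 (SE 0.64, interval -2.13 to 0.80). Without DMSO replicate 2 it was 0.33, so its sign rested on that library. With the block it was -0.35 (interval -0.98 to 0.28).

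SLC11A2 (chr12:50979401-51028566, minus strand), the transporter that moves iron out of endosomes after TFRC uptake, was the most even of the 10 among B2 libraries, at 45.2, 44.3 and 47.6 CPM in replicates 1 to 3, against 30.6, 49.7 and 58.6 CPM in DMSO replicates 1 to 3. The DMSO libraries lay on either side of all B2 libraries. Its log2 fold change was -0.019 (SE 0.30, interval -0.70 to 0.66). SLC11A1 (chr2:218382029-218396894, plus strand), the phagosomal metal transporter of macrophages known as NRAMP1, was near the floor, at 0.623, 0.726 and 1.40 CPM in B2 replicates 1 to 3, against 0.967, 0.670 and 1.04 CPM in DMSO replicates 1 to 3. Its log2 fold change was 0.036 (SE 0.48, interval -1.07 to 1.14), and it was -0.41 without B2 replicate 3.

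SLC40A1 (chr2:189560579-189583758, minus strand), which encodes the iron exporter ferroportin, was also low, at 1.08, 1.38 and 1.14 CPM in B2 replicates 1 to 3, against 1.56, 2.50 and 0.657 CPM in DMSO replicates 1 to 3. The DMSO libraries again lay on either side of the B2 libraries. The log2 fold change was -0.39 (SE 0.52, interval -1.57 to 0.80), and it was 0.077 without DMSO replicate 2. HMOX1 (chr22:35380361-35394214, plus strand), which splits haem into biliverdin, carbon monoxide and iron, stood at 10.4, 9.13 and 15.2 CPM in B2 replicates 1 to 3, against 13.2, 8.15 and 16.7 CPM in DMSO replicates 1 to 3. Its log2 fold change was -0.13 (SE 0.37, interval -0.97 to 0.71). It was 0.12 without DMSO replicate 3 and 0.014 without B2 replicate 2.

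ACO1 (chr9:32384603-32454769, plus strand), which encodes iron regulatory protein 1 and, with an iron-sulfur cluster bound, the cytosolic aconitase, stood at 83.0, 92.2 and 67.3 CPM in B2 replicates 1 to 3, against 43.7, 84.2 and 64.0 CPM in DMSO replicates 1 to 3. It was the single gene of the 10 with a higher B2 value in 3 of 3 same-numbered pairs, where 15.8% of all genes had their 3 pairs in a single direction. The pair differences were 0.92, 0.13 and 0.07 on the log2 scale for numbers 1, 2 and 3, so most of it lay in number 1. The log2 fold change was 0.34 (SE 0.31, interval -0.36 to 1.04) (unadjusted p = 0.300, edgeR), and it was 0.14 without DMSO replicate 1. IREB2 (chr15:78437431-78501456, plus strand), which encodes iron regulatory protein 2, stood at 22.3, 28.3 and 25.3 CPM in B2 replicates 1 to 3, against 15.9, 49.1 and 33.9 CPM in DMSO replicates 1 to 3. Its log2 fold change was -0.38 (SE 0.41, interval -1.31 to 0.55), and it was 0.0042 without DMSO replicate 2 and -0.70 without DMSO replicate 1.

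**Figure D2:**
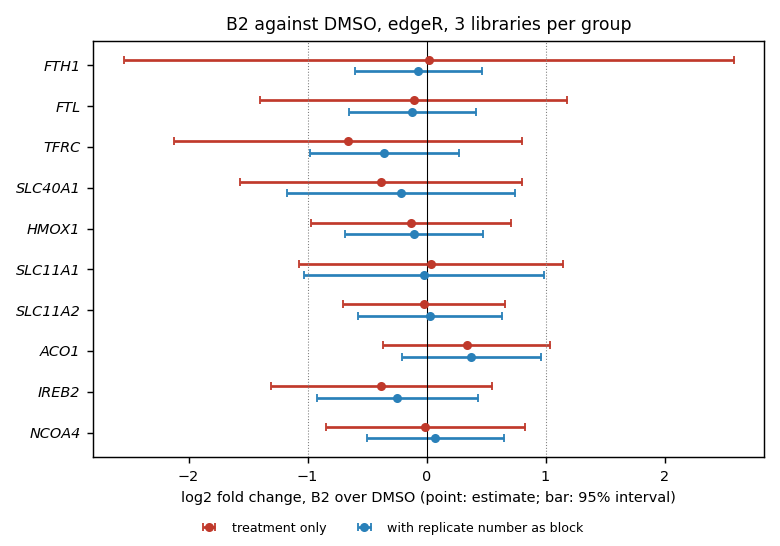
Log2 fold change of each iron gene, B2 over DMSO, with 95% intervals from edgeR fits of 3 libraries per group, without (red) and with (blue) the replicate number as a block; dotted lines mark a 2-fold change. Every interval crosses 0. The block narrows the FTH1 interval to -0.60 to 0.47, against -2.55 to 2.58 without it. The pairing that the block assumes was taken from the data.

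The precision of these differences was uneven. Without the block, the 95% interval stayed inside a 2-fold change in either direction for 3 of the 10 genes (HMOX1, SLC11A2 and NCOA4). With the block, 8 of 10 did, the exceptions being SLC40A1 (interval -1.17 to 0.74) and SLC11A1 (-1.03 to 0.98). The labels state no pairing by number. It was taken from these same data, so the narrower intervals hold only if the pairing is real. A trend with GC content ran in opposite directions in replicates 1 and 2 of each group, more strongly with DMSO. The Spearman correlation across 17015 genes between a library's deviation from the 6-library mean and transcript GC content was 0.22, -0.30 and 0.05 in B2 replicates 1 to 3, and 0.53, -0.60 and 0.10 in DMSO replicates 1 to 3. With exon length it was -0.04, 0.20 and -0.03 in B2 replicates 1 to 3. In DMSO replicates 1 to 3 it was -0.29, 0.21 and 0.02. Which of GC content and length lies behind the trend was not tested. In their longest transcript, 6 of the 10 genes have a GC content of 38.3% to 45.7%, against a median of 49.7% for all genes tested. Of these 6, ACO1, IREB2, NCOA4 and SLC11A2 were lowest in DMSO replicate 1, while TFRC and SLC40A1 were lowest in DMSO replicate 3. With the GC trend removed, an alternative chosen after seeing the data, 0 of 10 genes were called. The B2 estimates were then -0.17 for IREB2 (SE 0.22), -0.49 for TFRC (SE 0.49) and -0.37 for SLC40A1 (SE 0.46). They were -0.051 for SLC11A2 (SE 0.26), 0.033 for NCOA4 (SE 0.23) and 0.28 for ACO1 (SE 0.17).

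The ferritin genes and TFRC differed by replicate number. When number was fitted beside treatment in edgeR, 3 of 10 iron genes differed across numbers at an adjusted p below 0.05, where 461 of 17224 genes (2.68%) did. At an unadjusted p below 0.05 the same count was 3 of 10, against 21.8% of all genes. The whole-table count was 4124 without B2 replicate 1 and 1726 without B2 replicate 2. FTH1 and FTL rose in number 3 relative to numbers 1 and 2, a direction called in 2.2% of all genes, and TFRC fell, a direction called in 0.476%. In bulk RNA, more cells of a type and more RNA per cell cannot be told apart. The contrast of number 3 with the mean of numbers 1 and 2 was chosen with earlier results of these data known, and the number is not a condition that the study set. Each adjusted p across numbers comes from a joint test of numbers 1, 2 and 3, not from the contrast printed beside it.

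The mean of FTH1 was 3593 CPM for number 3, against 500.3 CPM for number 1 and 296 CPM for number 2 (n = 2 libraries each). Its log2 fold change, number 3 over numbers 1 and 2, was 3.23 (SE 0.25, edgeR adjusted p = 5.1e-05 across numbers), and by p it ranked 43rd of the 17224 genes. It lay between 3.07 and 3.44 when any single library was left out and was called each time. Its 25 annotated processed copies (FTH1P followed by digits), to which its reads could map, summed to 0.635% of its own count in B2 replicate 3, against 0.573% in DMSO replicate 3, and to under 1% in every library. FTH1P2 held the most summed over the 6 libraries, with 385 counts in B2 replicate 3 and 490 counts in DMSO replicate 3. Adding the copies to FTH1 left the fold change at 3.22. Exons of FTH1 overlap BEST1 on the other strand, and the strand setting of the counting is not given, so reads of the 2 genes cannot be told apart. BEST1 had 163, 169 and 6155 counts in B2 replicates 1 to 3, against 1307, 899 and 9978 in DMSO replicates 1 to 3, at most 4.21% of the FTH1 count.

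The mean of FTL was 22274 CPM for number 3, against 11298 CPM for number 1 and 6728 CPM for number 2 (log2 fold change 1.36, SE 0.25, edgeR adjusted p = 0.0204). The call was lost without B2 replicate 3 (adjusted p = 0.135), without DMSO replicate 2 (0.151) and with no filter on low counts (0.127), while the fold change stayed between 1.17 and 1.61 without any single library. Together the ferritin chains held 0.959%, 0.807% and 2.61% of all counts in B2 replicates 1 to 3, against 1.23%, 0.699% and 2.51% in DMSO replicates 1 to 3. The 95% intervals of the number 3 fold change did not overlap between the chains, at 2.68 to 3.78 for FTH1 and 0.81 to 1.90 for FTL. The FTL to FTH1 ratio, per kilobase of exon, was 49.4, 52.7 and 14.2 in B2 replicates 1 to 3, against 54.3, 52.4 and 14.5 in DMSO replicates 1 to 3. The ratio was lowest in both libraries numbered 3. Its size depends on the merged exon lengths, while its comparison between libraries does not.

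The mean of TFRC was 60.01 CPM for number 3, against 105 CPM for number 1 and 255 CPM for number 2 (log2 fold change -1.40, SE 0.32, edgeR adjusted p = 0.0216). It was highest in number 2, where DMSO replicate 2 read 349 CPM and B2 replicate 2 read 161 CPM. The call was lost without DMSO replicate 1 (adjusted p = 0.0879), without DMSO replicate 2 (0.224), without DMSO replicate 3 (0.279) and with library totals as the only scaling (0.0551). Without any single library the estimate ran from -1.80 to -1.03. TFRC has a GC content of 41.5%, and with the GC trend removed its fold change was -1.32 (adjusted p = 0.0256), beside 3.31 for FTH1 (3.8e-04) and 1.35 for FTL (0.0401). The ratio of FTH1 CPM to TFRC CPM, not scaled to length and read between libraries only, was 4.12, 1.97 and 58.2 in B2 replicates 1 to 3, against 5.33, 0.788 and 61.7 in DMSO replicates 1 to 3.

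**Figure D3:**
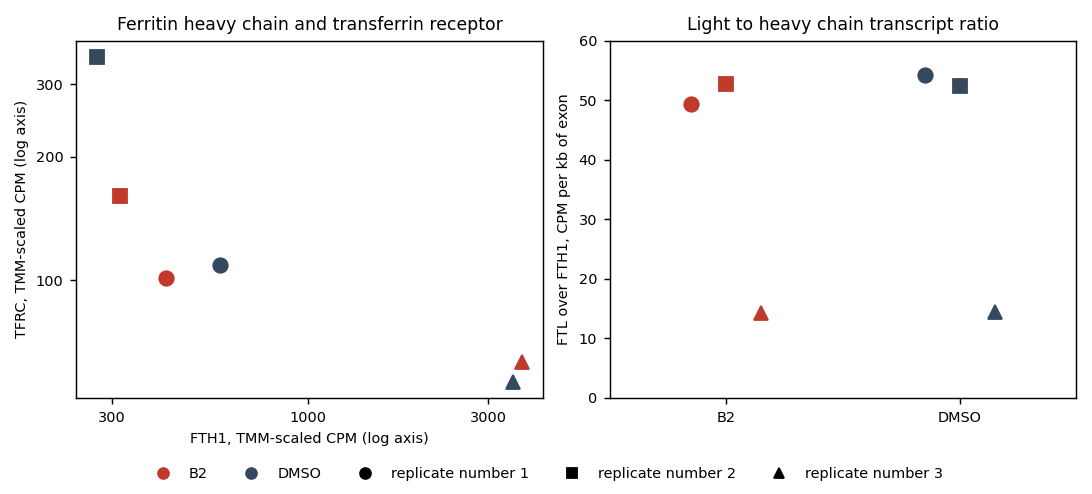
Left, TFRC against FTH1 in each library (TMM-scaled CPM, both axes logarithmic); right, ratio of FTL to FTH1 per kilobase of exon, B2 left of DMSO. Color marks the treatment and shape the replicate number. Both libraries numbered 3 lie at high FTH1 and low TFRC, with a ratio of 14.2 with B2 and 14.5 with DMSO, where the other libraries lie between 49.4 and 54.3.

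The other 7 iron genes did not pass the test across numbers. HMOX1 had a mean of 15.9 CPM for number 3, against 11.8 and 8.64 CPM for numbers 1 and 2 (log2 fold change 0.66, SE 0.28, edgeR adjusted p = 0.248), and SLC11A1 had 1.22 CPM against 0.795 and 0.698 CPM (0.72, SE 0.48, adjusted p = 0.550). With FTH1 and FTL these made 4 of 10 genes with both number 3 libraries above the other 4, where 12.3% of all genes had that. TFRC was the 1 of 10 with both below, where 12.1% had that. SLC40A1 had a mean of 0.898 CPM for number 3, against 1.32 and 1.94 CPM for numbers 1 and 2 (-0.79, SE 0.48, adjusted p = 0.411). NCOA4 (0.26, SE 0.27), SLC11A2 (0.33, SE 0.29), IREB2 (0.11, SE 0.32) and ACO1 (-0.16, SE 0.28) had edgeR adjusted p across numbers from 0.236 to 0.579. The estimates of ACO1 and IREB2 changed sign when single libraries were left out. The median over the 10 genes was 0.30, against -0.05 over all genes tested.

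**Figure D4:**
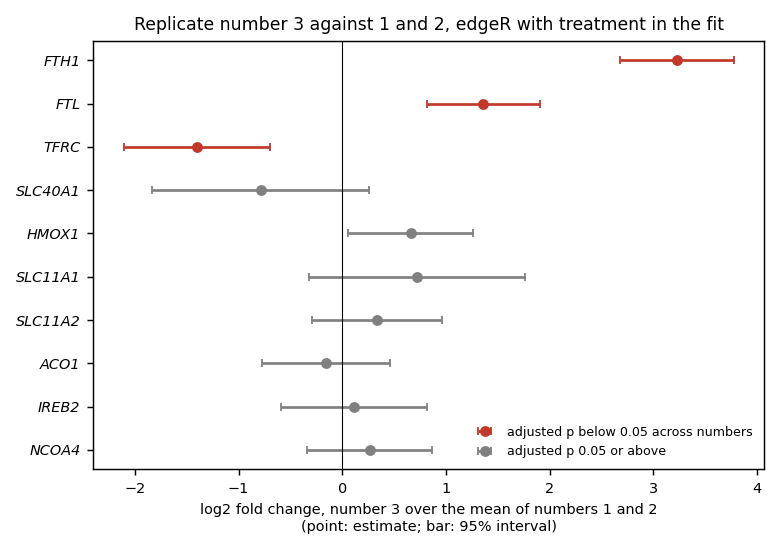
Log2 fold change of each iron gene, number 3 over the mean of numbers 1 and 2, with 95% intervals from the edgeR fit with treatment and number (2 libraries per number). FTH1 at 3.23, FTL at 1.36 and TFRC at -1.40 (red) passed the test across numbers. Intervals are those of the contrast, while the color follows the joint test of numbers. The HMOX1 interval (0.056 to 1.26) therefore excludes 0 though it is drawn in gray.

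The macrophage markers moved with the same libraries. SIGLEC1, a sialic acid receptor, read 3.43, 2.79 and 478 CPM in B2 replicates 1 to 3, against 3.78, 2.92 and 519 CPM in DMSO replicates 1 to 3. CD163, the haemoglobin scavenger receptor, read 0.393, 0.370 and 45.6 CPM in B2 replicates 1 to 3, against 0.305, 1.17 and 40.6 CPM in DMSO replicates 1 to 3, though its exons overlap CD163L1. Their part in the ferritin and TFRC values was not tested. A T cell marker, CD2, was also higher in number 3 (log2 fold change 3.28, SE 0.43, edgeR adjusted p = 0.00268), while CD3D, CD3E and CD3G were at 0 in all 6 libraries. Epithelial markers, which are foreign to a myeloid line, were all 5 positive for number 3, with a median log2 fold change of 1.48. All 5 were also positive for B2 over DMSO, with a median of 1.28. Over all genes tested these medians were -0.05 and -0.08. The summed level of the epithelial markers was 26.2, 26.4 and 30.0 CPM in B2 replicates 1 to 3, against 1.22, 7.83 and 23.2 CPM in DMSO replicates 1 to 3. Of the 5, 0 were called for B2, where 0% of all genes were, and 0 across numbers, where 2.68% were.

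Few other genes of iron and haem metabolism passed a test. For B2 against DMSO, 0 were called in each of the lists that follow, which leave out the 10 genes. Among 8 tested genes of iron uptake and reduction, 2 were called across numbers, where 2.68% of all genes were. Both were higher in number 3: CD163 and LRP1, the receptor for haem bound to hemopexin. LRP1 read 1.599, 2.12 and 12.2 CPM in B2 replicates 1 to 3, against 2.17, 1.78 and 14.03 CPM in DMSO replicates 1 to 3 (log2 fold change 2.77, SE 0.29, edgeR adjusted p = 5.6e-04), and its exons overlap STAT6 on the other strand. The list's median was -0.03, against -0.05 over all genes tested. CYBRD1, a ferric reductase, read 65.6, 80.4 and 79.5 CPM in B2 replicates 1 to 3, against 54.1, 129.6 and 64.3 CPM in DMSO replicates 1 to 3.

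Among 8 genes of haem breakdown and export the same CD163 and LRP1 were called across numbers, where 2.68% of all genes were. This list's median was 0.49, against -0.05 over all genes tested. BLVRB, a biliverdin reductase that acts after HMOX1, read 146, 123 and 223 CPM in B2 replicates 1 to 3, against 239, 103 and 184 CPM in DMSO replicates 1 to 3 (log2 fold change for number 0.47, SE 0.28). FLVCR1, a haem exporter, had means of 7.56, 21.0 and 8.56 CPM for numbers 1, 2 and 3 (edgeR adjusted p = 0.0947 across numbers). It was highest in number 2. Its log2 fold change, number 3 over numbers 1 and 2, was -0.57 (SE 0.35). Across numbers 0 were called of 2 iron export genes, 5 storage and ferritinophagy genes, 6 iron sensing genes, 11 haem synthesis genes, 20 iron-sulfur cluster genes and 5 genes of other iron-responsive transcripts, and their medians lay between -0.10 and 0.13.

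HMOX1, FTH1, FTL and SLC40A1 are known targets of the oxidative stress factor NRF2 and its repressor BACH1. Of 17 other genes of that system, 2 were called across numbers, both higher in number 3, where 2.2% of all genes were called and higher. The median was 0.36, against -0.05 over all genes tested. The part of that system in the ferritin values was not tested. SLC7A11, the cystine importer, read 3.29, 4.02 and 9.24 CPM in B2 replicates 1 to 3, against 1.34, 3.66 and 9.46 CPM in DMSO replicates 1 to 3 (log2 fold change 1.70, SE 0.33, edgeR adjusted p = 0.0361). SRXN1, which repairs oxidised peroxiredoxins, read 14.7, 13.5 and 35.6 CPM in B2 replicates 1 to 3, against 14.2, 14.002 and 38.9 CPM in DMSO replicates 1 to 3 (1.40, SE 0.27, adjusted p = 0.0385). The exons of both overlap another gene.

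By Pearson correlation of log2(CPM + 0.5) over the 6 libraries, the genes outside the 10 most like FTH1 were VILL, TYMP and SLC15A3 (r = 0.999 each). TYMP, thymidine phosphorylase, read 23.6, 19.6 and 194 CPM in B2 replicates 1 to 3, against 35.3, 17.2 and 172 CPM in DMSO replicates 1 to 3. Exons of TYMP overlap ODF3B and SCO2 on the same strand, and those of SLC15A3 overlap TMEM132A on the other strand. The genes most like ACO1, which had the smallest p for B2, were HUWE1, RBBP5 and an unnamed gene, ENSG00000270083, which stayed below 0.274 CPM (r = 0.999 each). HUWE1, a ubiquitin ligase, read 669, 824 and 500.0 CPM in B2 replicates 1 to 3, against 241, 713 and 450.2 CPM in DMSO replicates 1 to 3, lowest in DMSO replicate 1 as ACO1 was. These likenesses were picked as the highest among all genes tested, and they rest on 6 libraries that share the split by number and the GC trend.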

How the data were processed

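Per the labels' protocols, TRIzol was used to extract the RNA. The authors deposited whole numbers for 60612 Ensembl identifiers, with a different total in each library, which were treated here as estimated counts (expected counts) that are not normalized. The submitters' processing notes name HISAT2 2.0.4. For the counting tool, genome build, gene annotation and strandedness, the setting is not given in the sources used here. Among low values, 4 occurs 6465 times and 3 occurs 3144 times, and the cause was not tested. Symbols came from a gene name table (60401 identifiers) and GENCODE 29 (187), which also gave positions and merged exon lengths.

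Genes were kept by filterByExpr (minimum count 10, minimum total 15), which left 17224, and scaled with TMM factors. Tests were edgeR 4.0.16 (R 4.3.3) quasi-likelihood fits with treatment alone or with treatment and replicate number (a joint test of both number terms), adjusted by Benjamini-Hochberg over all tested genes at a threshold of 0.05. SEs follow from each log2 fold change and its F value. Fits were run on simulated counts with the same scatter setting for every gene and no GC trend. The simulated treatment data held no split by number, so these runs do not cover data like these. limma 3.58.1 and DESeq2 1.42.0 were alternatives. Pairing by number comes from the data: deviations of same-numbered libraries correlated at 0.21, 0.40 and 0.50. Genes named outside the 10 followed a fixed rule (called members of each list, up to 6, then up to 2 by smallest p across numbers, and the 3 most alike in pattern), of which the text prints a part. Other list members named with no value are list examples or genes at 0. Members and lists were chosen with earlier results of these data known.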

Additional observations from a re-analysis of the deposited data

How the results depend on the processing

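For B2 against DMSO, 3 genes were called by DESeq2, 48 with number 3 left out and the replicate block, and 0 to 1 without single libraries (1 without B2 replicate 2), with 0 under the other alternatives, the replicate block alone among them. No iron gene was called under any of the 20. Across numbers, the main count was 461 of 17224 genes. Of as many genes it was 956 with RLE factors, 1168 with upper-quartile factors, 266 with library totals and 1278 by limma-voom. It was 2110 of 13536 with a minimum count of 50, 1671 of 28792 by DESeq2 and 2379 of 13948 with counts divided by 4. Without single libraries it was 388 to 4124 (388 of 18035 without DMSO replicate 3, 4124 of 18029 without B2 replicate 1). The iron genes called were 1 to 3 without single libraries (1 without DMSO replicate 2). Each of these fits leaves a number with 1 library. A larger share of all genes was called without B2 replicate 1, so the iron count says less there. The cause of these shifts was not tested. With all 6 libraries the replicate block changed no call, while with number 3 left out the count was 48 with the block and 0 without it. Signs of B2 estimates near 0 turned. FTH1 was -0.060 by limma-voom, -0.068 with the replicate block, -0.23 without number 3 (-0.14 with the block) and -0.13 with the GC trend removed and the block. SLC11A1 was -0.048 by limma-voom, -0.024 with the block and -0.28 without number 3 (-0.26 with the block). SLC11A2 was 0.021 with upper-quartile factors, 0.036 with library totals, 0.019 by limma-voom, 0.031 with the block and 0.16 without number 3 (0.20 with the block). NCOA4 was 0.011 with RLE factors, 0.042 with upper-quartile factors, 0.021 with library totals, 0.0084 with no filter, 0.011 with a minimum count of 50, 0.0040 by DESeq2, 0.072 by limma-voom, 0.011 with counts divided by 4, 0.073 with the block, 0.0031 without number 3 and with the block, and 0.033 with the GC trend removed (0.026 with the block). Without single libraries, B2 estimates ran from -1.99 to 1.78 for FTH1, -0.79 to 0.38 for FTL, -1.08 to 0.33 for TFRC, -0.76 to 0.077 for SLC40A1, -0.39 to 0.12 for HMOX1, -0.41 to 0.24 for SLC11A1, -0.23 to 0.19 for SLC11A2, -0.70 to 0.0042 for IREB2 and -0.28 to 0.32 for NCOA4. Number 3 estimates ran from -0.39 to 0.065 for ACO1 and -0.071 to 0.41 for IREB2. A count of 3 is 0.0386 to 0.0537 CPM, so SLC11A1 and SLC40A1 carry the most counting error. The GC correction and the addition of ferritin pseudogene counts were chosen after seeing the data.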
